A study of Macaca fascicularis with 6 samples.

Results

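The type 2 chemokines and their receptors were followed across the cells of the cynomolgus monkey lung in health and in a model of asthma. The members were taken by symbol from the gene table of the libraries: the ligands CCL17 and CCL22 with their receptor CCR4, the eotaxins CCL11, CCL24 and CCL26 with their receptor CCR3, the ligand CCL18, and its receptor CCR8. Of the 9 symbols, 8 matched exactly 1 row each among 28623 genes. No row carried the symbol CCR8, which was not analysed here.

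Lungs came from male Macaca fascicularis aged 3 to 5 years, 1 droplet library to a monkey. The control group held 3 monkeys that received saline (replicates 1, 2 and 3), and the asthma group held 3 monkeys sensitised under the skin with an extract of the roundworm Ascaris suum in adjuvant and then challenged with it through the nose (replicates 8, 10 and 11). The tissue was dissociated and depleted of dead cells before 3′ libraries were made, so a gene is counted in the cells that survived this, and the libraries are the replicates. The deposited barcodes held between 29014556 and 41489879 UMIs (unique molecular identifiers, 1 per captured RNA molecule) to a library. After the quality thresholds, 4339, 3200 and 3902 control cells and 4136, 4620 and 4038 asthma cells were kept, 24235 in all, with a median depth from 3835 to 5048 UMIs to a cell. Values by library are given below in the order of these replicate numbers. Any pair of libraries shared between 5 and 13 barcode sequences.

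Chemokines are small secreted proteins that draw cells bearing the matching receptor along a gradient. In allergic airways CCL17 and CCL22 are known as products of dendritic cells and macrophages that attract CCR4-bearing T helper 2 and regulatory T cells, while the eotaxins are known for attracting CCR3-bearing eosinophils. CCL18 is a chemokine of alveolar macrophages and other myeloid cells. IL-4 and IL-13 acting through STAT6 are textbook inducers of several of these ligands. In the RefSeq annotation of this species, of another assembly than the counts, CCL17 and CCL22 lie on chromosome 20 with only CX3CL1 between them, CCL24 and CCL26 are neighbours on chromosome 3, CCL11 and CCL18 lie in separate chemokine groups on chromosome 16, and CCR4 and CCR3 lie on chromosome 2.

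Levels spanned more than 3 orders of magnitude on the scale of CPM (UMIs of a gene scaled to a fixed total per library or class), which for 3′ counts needs no correction for gene length. Averaged over the 6 libraries, CCL18 stood at 768 CPM, CCL17 at 76.6, CCL22 at 10.0, CCL11 at 8.42, CCL24 at 2.74, CCL26 at 1.55, CCR4 at 0.444 and CCR3 at 0.426 CPM. Both receptors were thus near the limit of detection, with 76 UMIs of CCR4 and 69 of CCR3 over all kept cells, against 141680 UMIs of CCL18. The quality thresholds left out many CCL18 UMIs, since 210174 were counted over all deposited barcodes. For the other members the kept cells held most UMIs of the deposited barcodes.

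**Figure D1:**
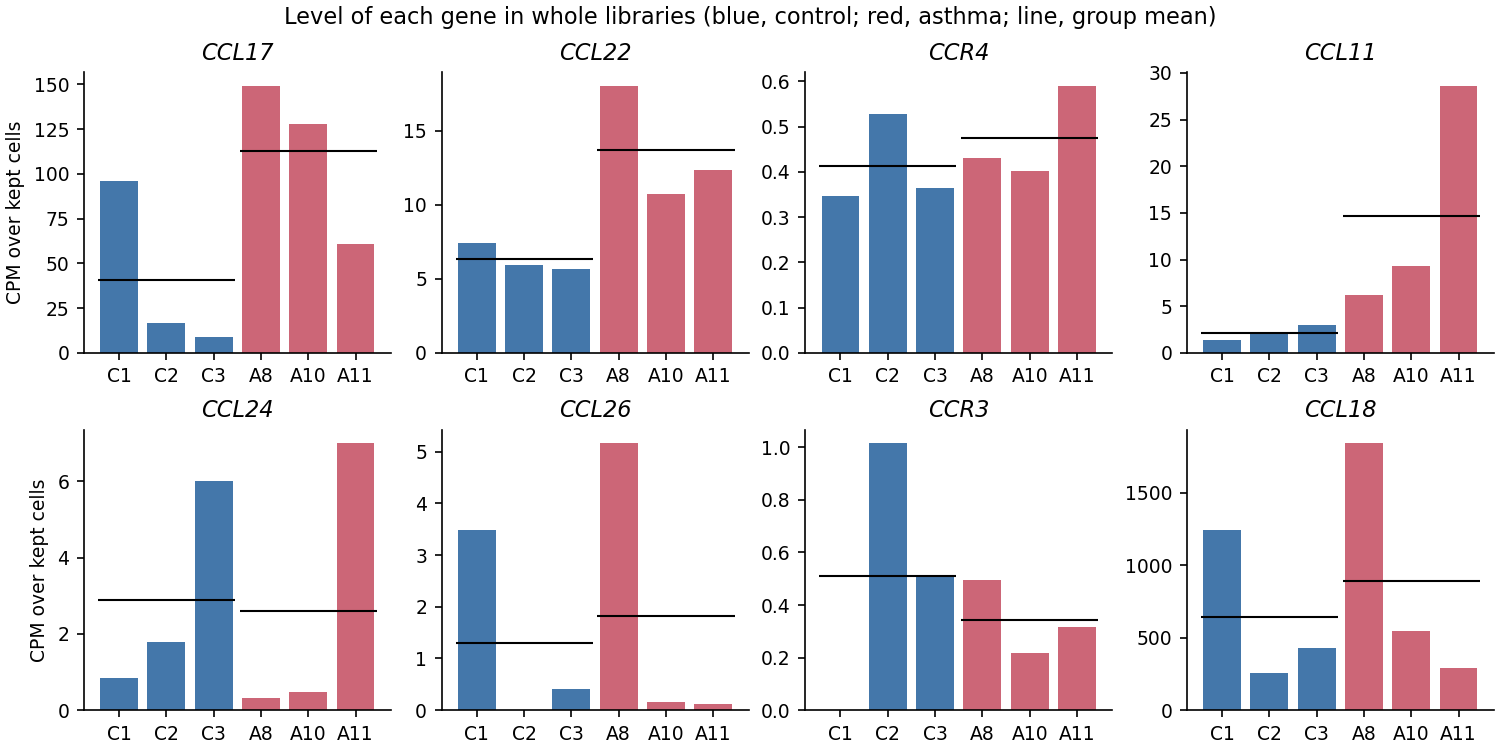
Bars give the level of each gene in CPM over all kept cells of a library (C1, C2 and C3, control; A8, A10 and A11, asthma) and lines give the mean of each group of 3. The asthma libraries lie above all controls for CCL22 and CCL11, whereas CCL17, CCL24, CCL26 and CCL18 differ as much within a group as between groups.

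Whether the chemokines differed between asthmatic and control lungs was first asked of whole libraries, with edgeR's quasi-likelihood test on UMIs summed over the kept cells. All 8 genes passed the filter on low counts, and 0 of them were called at an adjusted p under 0.05 and a log2 fold change over 0.25, against 0.0839% of the 14306 genes tested. At an unadjusted p under 0.05 there were 2, CCL11 and CCL22, against 12.9% of all genes. The same 2 had asthma libraries that did not overlap the controls, where 19.0% of all genes had groups that did not overlap and 15.9% had asthma above all controls. DESeq2, run as an alternative, called both CCL11 and CCL22 as higher in asthma but gave no adjusted p for CCL17, CCR4 and CCR3, in a fit that called 4.81% of the 13445 genes to which it gave an adjusted p. In sums over a whole library, more cells of a type and more RNA in each cell cannot be told apart, so each gene is described by cell class next.

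Cells were clustered without the members, and classes were named from marker genes that did not include them. Names such as macrophage-like below rest on those markers. The ligands differed in the cells that held most of their UMIs, with overlap between some. CCL18 and CCL24 lay mostly in macrophage-like cells, CCL17 in macrophage-like and dendritic-like cells, CCL22 in dendritic-like cells, CCL11 in fibroblast-like cells and CCL26 in a handful of club-like and endothelial-like cells. CCR4 and CCR3 lay in T and NK-like cells.

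**Figure D2:**
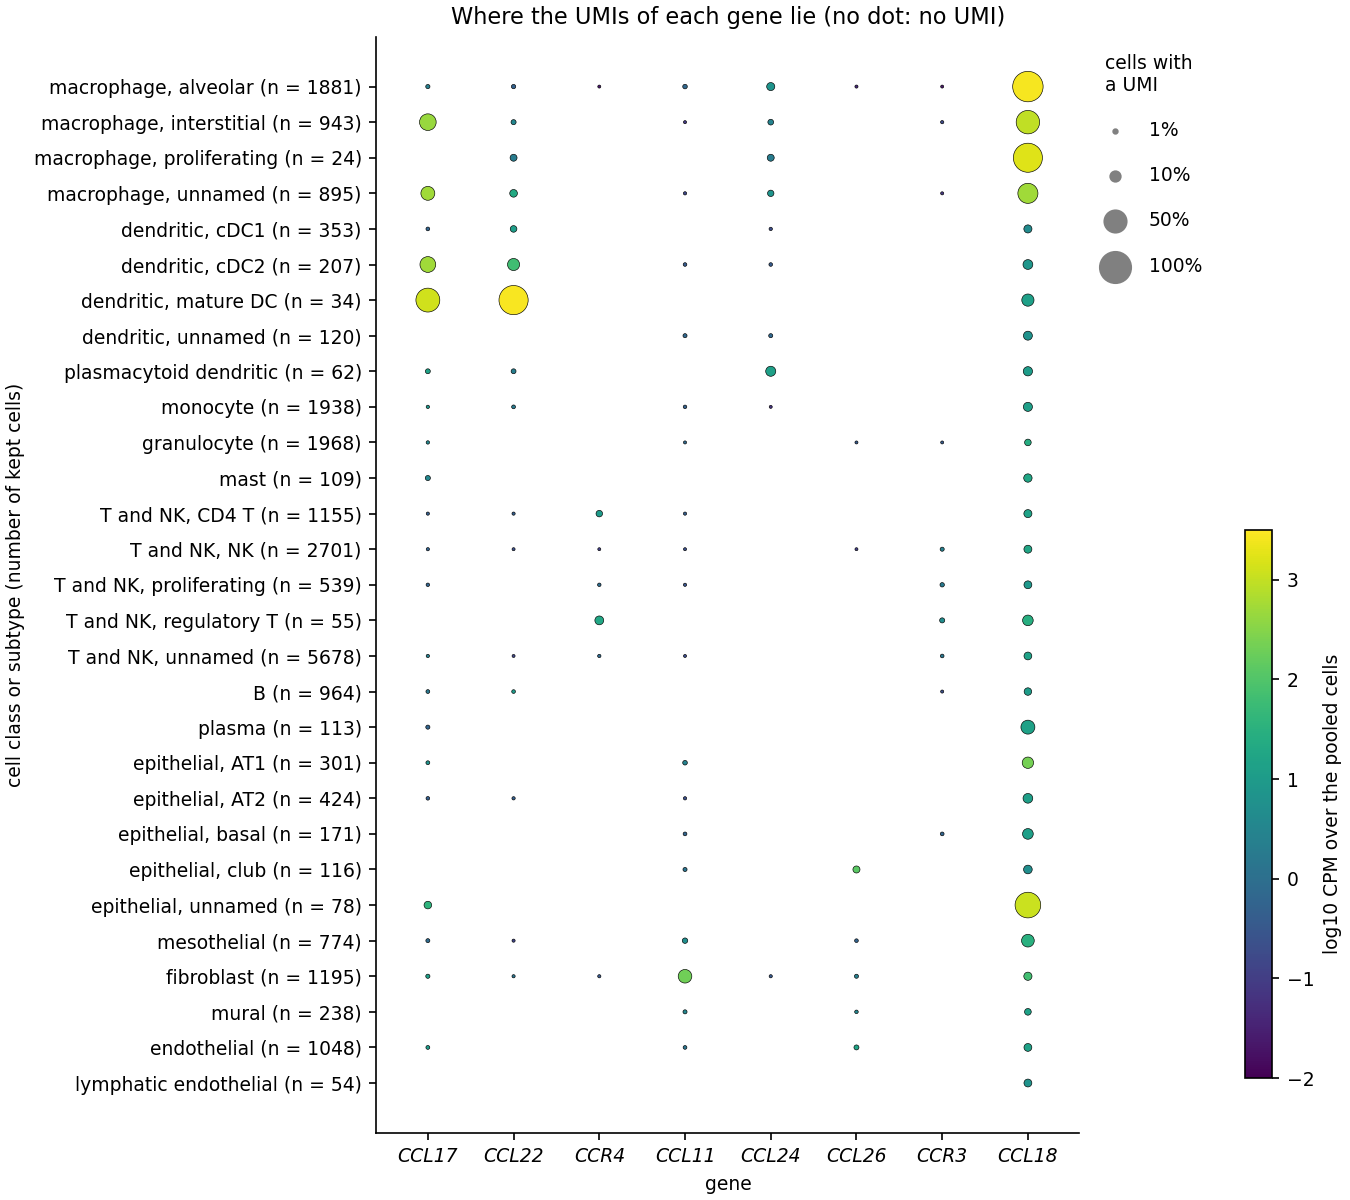
Each dot gives the share of cells with at least 1 UMI (area) and the log10 of CPM over the pooled cells of a class or subtype (colour), with the number of cells beside its name. CCL22 peaks in mature DC-like cells, CCL11 in fibroblast-like cells and CCL18 in alveolar macrophage-like cells, with small dots for CCL18 in every class.

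CCL17, a ligand of CCR4, was carried by a small number of cells with many UMIs each. Of its 14167 UMIs in kept cells, 84.0% came from macrophage-like and 13.3% from dendritic-like cells, and 608 cells in all had at least 1. Alveolar macrophage-like cells, which are marked by FABP4 and MARCO, held 103 of these UMIs in 1881 cells, a level of 2.31 CPM. Interstitial macrophage-like cells, marked by FOLR2 and STAB1, stood at 439 CPM, and 28.1% of the 943 had a UMI. The macrophages of the airspace and of the tissue thus differed widely in CCL17 in the pooled cells, and in each of the 6 libraries the interstitial level (132 to 1066 CPM) lay above the alveolar one (0.0 to 9.10 CPM).

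The highest CCL17 level among macrophage-like cells was in a sub-cluster of 261 cells that carried the complement genes C1QA, C1QB and C1QC together with CD1E, CLEC10A, FLT3 and FCER1A, genes known from type 2 conventional dendritic cells (cDC2). This CD1E-high sub-cluster was counted in the macrophage-like class but was given no subtype name. It stood at 1587 CPM and held 34.3% of all CCL17 UMIs in kept cells. The split of CCL17 between macrophage-like and dendritic-like cells given above thus depends on where this sub-cluster is placed. By library it stood at 1039, 682 and 11.7 CPM in the controls and at 7708, 1734 and 860 CPM in asthma. The level of control replicate 3 rested on 3 UMIs in 26 cells, and the groups overlapped, because control replicate 1 exceeded asthma replicate 11. An interstitial macrophage-like sub-cluster led by MAMDC2 held a further 28.8% of the UMIs at 455 CPM.

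Among dendritic-like cells, CCL17 stood at 508 CPM in the cDC2-like cells and at 1241 CPM in the mature DC-like cells, a set of 34 cells with LAMP3, FSCN1 and EBI3 among its leading genes. The cDC1-like cells, which carry CLEC9A and serve cross-presentation, had 2 cells with a CCL17 UMI among 353. For thinned shares, cells were thinned to 2000 UMIs and shallower cells were left out, 882 of the 10128 T and NK-like cells among them. After thinning, the share of cells with a CCL17 UMI was 44.1% in mature DC-like, 17.6% in interstitial macrophage-like and 17.0% in cDC2-like cells. In T and NK-like cells, which should lack the gene, the thinned share was 0.151%. Median depths were 11940 UMIs in mature DC-like and 3657 in T and NK-like cells.

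Whole libraries held CCL17 at 96.3, 16.9 and 8.74 CPM in the controls and at 149, 128 and 60.6 CPM in asthma. Control replicate 1 stood apart from the other controls and lay above asthma replicate 11, so the groups overlapped. The means were 40.6 ± 48.4 (SD, n = 3) and 113 ± 46.3 CPM, and edgeR gave a log2 fold change of 1.26 with a standard error of 0.90 and an adjusted p of 0.611. Without control replicate 1 the log2 fold change was 3.01, with an edgeR adjusted p of 0.21.

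Within macrophage-like cells CCL17 stood at 140, 41.6 and 24.6 CPM in the controls and at 320, 215 and 213 CPM in asthma. Here every asthma library lay above every control, as for 11.6% of the 10739 genes tested in these cells, of which 5.46% had an unadjusted p under 0.05. The edgeR log2 fold change was 1.74 with a standard error of 0.59, an unadjusted p of 0.0209 and an adjusted p of 0.87, and 0.0% of genes were called in the class. Leaving out a library gave from 1.34 (without control replicate 3) to 2.78 (without control replicate 1), and none of these passed. Macrophage-like cells differed in make-up between libraries, and alveolar macrophage-like cells, low in CCL17, made up 63.3%, 59.1% and 56.3% of the class in the controls and 70.2%, 22.9% and 36.97% in asthma. The CD1E-high sub-cluster made up 5.60%, 4.97% and 6.42% of it in the controls and 3.47%, 4.72% and 22.5% in asthma. In asthma replicate 11 that sub-cluster held 62.55% of the library's CCL17 UMIs. Its part in the class level was not tested. In interstitial macrophage-like cells alone, the levels were 767, 132 and 156 CPM in the controls and 1066, 370 and 267 CPM in asthma, and the groups overlapped. In dendritic-like cells CCL17 stood at 392, 43.2 and 12.6 CPM in the controls and at 556, 714 and 163 CPM in asthma, which overlapped as well. There edgeR gave a log2 fold change of 1.6 with a standard error of 0.99 and an adjusted p of 0.753, and 4.15 without control replicate 1. The shares of cDC2-like and cDC1-like cells did not overlap between the groups, which is a description with no test. As parts of 1 class these shares are not independent, and the class held 71, 40 and 72 cells in asthma. The cDC2-like cells were 32.3%, 34.3% and 14.9% of it in the controls and 42.3%, 57.5% and 47.2% in asthma, and the cDC1-like cells, nearly free of CCL17 UMIs, were 44.9%, 47.1% and 63.7% against 33.8%, 17.5% and 34.7%. Their part in the CCL17 and CCL22 levels of the class was not tested.

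**Figure D3:**
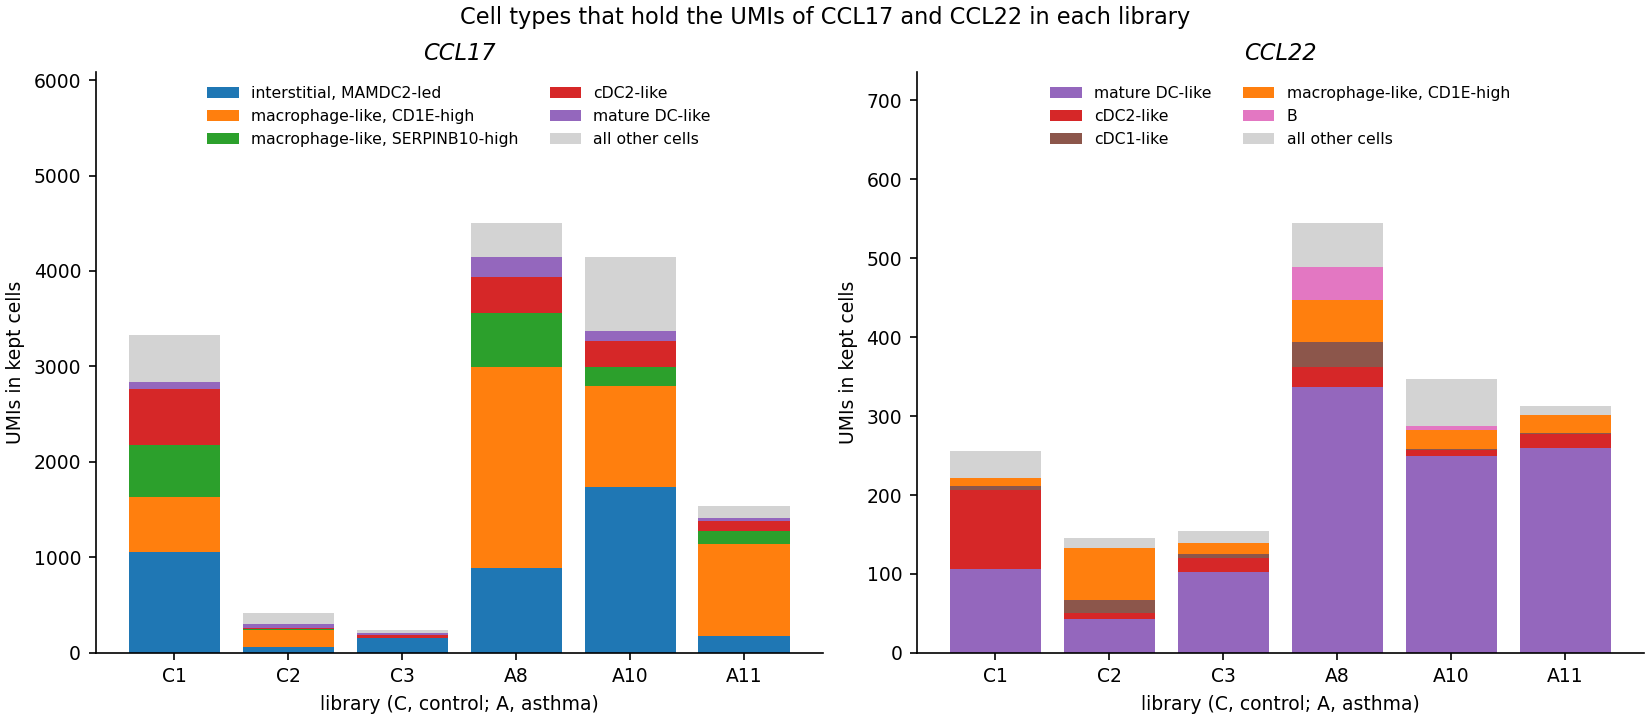
Stacked bars give the number of UMIs of CCL17 (left) and CCL22 (right) in kept cells of each library (C1, C2 and C3, control; A8, A10 and A11, asthma) by the cells that held them. CCL17 comes mostly from macrophage-like cells, among which the CD1E-high sub-cluster is counted. For CCL22, mature DC-like cells are the largest source in every library but control replicate 2, where the CD1E-high sub-cluster holds the most. In control replicate 1 the mature DC-like cells hold 41.4% of the CCL22 UMIs.

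CCL22, the other CCR4 ligand, had a narrower source than CCL17. The 34 mature DC-like cells held 1097 of its 1762 UMIs, or 62.3%, at 2739 CPM, and 30 of the 34 cells had at least 1. The share of cells with a UMI after thinning was 76.5% in mature DC-like, 6.59% in the CD1E-high macrophage-like sub-cluster, 5.83% in cDC2-like and 0.0534% in alveolar macrophage-like cells. It was 0.0541% in T and NK-like cells, so the alveolar share was at this background. A B-like sub-cluster had 47 UMIs in 5 of its 208 cells, 42 of them in asthma replicate 8.

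CCL17 and CCL22 were found together in part. Over all kept cells, 81 cells had a UMI of both, which was 13.3% of the cells with CCL17 and 43.1% of those with CCL22. Among the 34 mature DC-like cells 19 had both, or 95.0% of those with CCL17 and 63.3% of those with CCL22. In the MAMDC2-led interstitial macrophage-like sub-cluster 7 had both, or 3.55% of those with CCL17. Of the 265 interstitial macrophage-like cells with a CCL17 UMI, 9 also had CCL22.

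In whole libraries CCL22 stood at 7.42, 5.94 and 5.65 CPM in the controls and at 18.1, 10.7 and 12.3 CPM in asthma. All asthma libraries lay above all controls, with means of 13.7 ± 3.85 and 6.33 ± 0.949 CPM (SD, n = 3 each). By edgeR the log2 fold change was 0.95 with a standard error of 0.25, an unadjusted p of 0.00678 and an adjusted p of 0.229, which did not pass. DESeq2 gave 0.95 with an adjusted p of 0.0222. These totals rest on few cells, since between 11 and 47 cells in a library had a CCL22 UMI and the richest cell alone held between 21.3% and 45.4% of the library's UMIs.

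In dendritic-like cells CCL22 stood at 126, 51.7 and 28.7 CPM in the controls and at 374, 485 and 312 CPM in asthma. The groups did not overlap, and asthma lay above all controls for 9.01% of the 6994 genes tested there, of which 0.0% were called and 7.66% had an unadjusted p under 0.05. In the edgeR fit the log2 fold change was 2.46 with a standard error of 0.46, an unadjusted p of 0.000393 and an adjusted p of 0.422. DESeq2 gave 2.44 with an adjusted p of 0.0504, which did not pass either. CCL22 passed by edgeR only when control replicate 1 was left out or when no filter on low counts was set. The first gave 3.27 with an edgeR adjusted p of 0.0275, in a fit that called 0.0142% of genes. The second called 1.41% of genes. The dendritic-like class itself was smaller in asthma, at 3.64%, 2.19% and 7.77% of kept cells in the controls against 1.72%, 0.866% and 1.78%. The exact permutation test gave p = 0.1, the smallest that 3 against 3 allows, and 0.5 after adjustment over the 5 classes compared.

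The make-up of the dendritic-like class moved with CCL22. Mature DC-like cells were 5 of 158, 3 of 70 and 7 of 303 dendritic-like cells in the controls and 8 of 71, 7 of 40 and 4 of 72 in asthma. As shares these were 3.16%, 4.29% and 2.31% against 11.3%, 17.5% and 5.56%, with exact intervals that overlapped (0.934% to 4.70% in control replicate 3, 1.53% to 13.6% in asthma replicate 11). CCL22 per mature DC-like cell was 21.2, 14.3 and 14.6 UMIs in the controls and 42.1, 35.7 and 64.8 UMIs in asthma. These counts are not scaled to depth. A single cell held 69 of the 102 UMIs in control replicate 3 and 142 of the 259 in asthma replicate 11. In the cDC2-like cells the order was not the same, with 196, 19.3 and 28.5 CPM in the controls and 62.9, 23.1 and 39.2 CPM in asthma. These sub-clusters were singled out after their values were seen and were not tested.

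CCR4, the receptor of both ligands, is a marker of T helper 2, regulatory and skin-homing T cells. Of its 76 UMIs, 71 lay in T and NK-like cells, 47 of them in the 1155 CD4 T-like cells and 4 in the 55 regulatory T-like cells. By subtype the level was 18.6 CPM in regulatory T-like, 9.96 CPM in CD4 T-like and 0.103 CPM in NK-like cells. In the CD4 T-like cells 3.55% had a UMI, or 1.55% after thinning. Macrophage-like cells had 1 UMI in 3743 cells. The 964 B-like cells had 0 UMIs, which allows up to 0.311% of cells with a UMI and does not limit the share that express the gene.

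In whole libraries CCR4 stood at 0.348, 0.529 and 0.364 CPM in the controls and at 0.431, 0.402 and 0.591 CPM in asthma, and the groups overlapped. The library values rest on between 10 and 15 UMIs each. The edgeR log2 fold change was 0.05 with a standard error of 0.37 and an adjusted p of 0.972, and its sign changed when control replicate 1, control replicate 3 or asthma replicate 11 was left out. Within T and NK-like cells the levels were 1.76, 1.66 and 1.02 CPM in the controls and 1.86, 1.79 and 3.68 CPM in asthma. The asthma libraries lay above all controls, as for 6.0% of the 10439 genes tested in the class, of which 0.0% were called. By edgeR the log2 fold change was 0.64 with a standard error of 0.46 and an adjusted p of 0.861. CD4 T-like cells, the main carriers, took shares of 15.6%, 8.86% and 6.38% of this class in the controls and 7.64%, 8.30% and 28.8% in asthma. Within them CCR4 stood at 8.81, 9.49 and 7.77 CPM in the controls and at 12.6, 9.69 and 11 CPM in asthma. These levels rest on 4 to 13 UMIs to a library and were not tested. The CD4 T-like cells fell in a pair of sub-clusters, both present in every library, in proportions that differed between the groups. One marked by CCR6 had 98, 65 and 54 control and 111, 113 and 291 asthma cells. Its CCR4 level was 8.565, 10.3 and 12.7 CPM in the controls and 6.52, 4.81 and 9.775 CPM in asthma. The other, marked by LEF1, had 194, 68 and 64 control and 34, 48 and 15 asthma cells. There the level was 8.92, 8.81 and 3.59 CPM against 28.3, 19.7 and 35.35 CPM, on 1 to 7 UMIs to a library. T and NK-like cells were 26.3% of asthma replicate 11 and between 42.0% and 47.4% of the other libraries.

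CCL11, or eotaxin-1, was a gene of fibroblast-like cells. They held 1285 of its 1395 UMIs, or 92.1%, at 208 CPM, ahead of mesothelial-like cells at 4.96 CPM. Within the class it was uneven. A sub-cluster of 392 cells led by COL1A1, LUM, DCN and MFAP4 and carrying C7 held 82.7% of all CCL11 UMIs at 518 CPM, and 44.9% of its cells had a UMI. A second fibroblast-like sub-cluster of 254 cells, led by CLEC3B and also carrying SCARA5 and MFAP5, stood at 10.47 CPM. A further fibroblast-like sub-cluster of 70 cells, with ASIP, MFAP4 and TCF21 among its leading genes, stood at 363 CPM on 41 UMIs, and 56 of its cells came from asthma replicate 11. After thinning, the share of cells with a UMI was 32.6% in the COL1A1-led sub-cluster and 0.0325% in T and NK-like cells.

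In whole libraries CCL11 stood at 1.42, 1.99 and 2.99 CPM in the controls and at 6.16, 9.34 and 28.6 CPM in asthma. Every asthma library lay above every control, with means of 14.7 ± 12.2 and 2.13 ± 0.793 CPM (SD, n = 3 each), a ratio of 6.90. In the edgeR fit the log2 fold change was 2.65 with a standard error of 0.61, an unadjusted p of 0.00383 and an adjusted p of 0.204, which did not pass. DESeq2 gave 2.66 with an adjusted p of 0.000538. Without asthma replicate 11, whose fibroblast-like cells were 12.7% of its cells against 1.91% to 6.95% in the other libraries, the edgeR log2 fold change was 1.76.

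Within fibroblast-like cells CCL11 stood at 71.5, 52.3 and 53.2 CPM in the controls and at 157, 546 and 335 CPM in asthma. Asthma lay above all controls, as for 12.2% of the 7840 genes tested in the class, of which 8.32% had an unadjusted p under 0.05. The edgeR log2 fold change was 2.41 with a standard error of 0.40, an unadjusted p of 0.000151 and an adjusted p of 0.09. CCL11 did not pass, in a class in which 0.0% of genes were called. DESeq2 called it with an adjusted p of 6.04e-06, in a fit that called 0.717% of genes. It also passed by edgeR without asthma replicate 8 (adjusted p of 0.0209, 0.137% of genes called), with the highest doublet scores left out (adjusted p of 0.0441, 0.308% called) and with no filter on low counts (1.65% called).

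The COL1A1-led sub-cluster made up 13 of 103, 27 of 101 and 35 of 271 fibroblast-like cells in the controls, or 12.6%, 26.7% and 12.9%. In asthma replicates 8, 10 and 11 it made up 48 of 118, 43 of 88 and 226 of 514, or 40.7%, 48.9% and 44.0%. The exact 95% interval reached 36.5% in control replicate 2 and began at 31.7% in asthma replicate 8. Within the sub-cluster the CCL11 level was 495, 155 and 366 CPM in the controls and 307, 1142 and 530 CPM in asthma, and the groups overlapped. The share of its cells with a CCL11 UMI was 30.8%, 25.9% and 31.4% in the controls and 39.6%, 62.8% and 47.8% in asthma, without overlap. The nearest values were 11 of 35 cells in control replicate 3 and 19 of 48 in asthma replicate 8. The share of all genes that separate the groups in this way inside the sub-cluster is not given, so this is a description only. In this description the make-up of the fibroblast-like cells did not overlap between the groups, while the CPM level inside the sub-cluster did. The shares of positive cells were not thinned to a common depth, and those of the controls rest on 4, 7 and 11 positive cells. The sub-cluster was singled out after its values were seen, and its part in the difference was not tested.

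**Figure D4:**
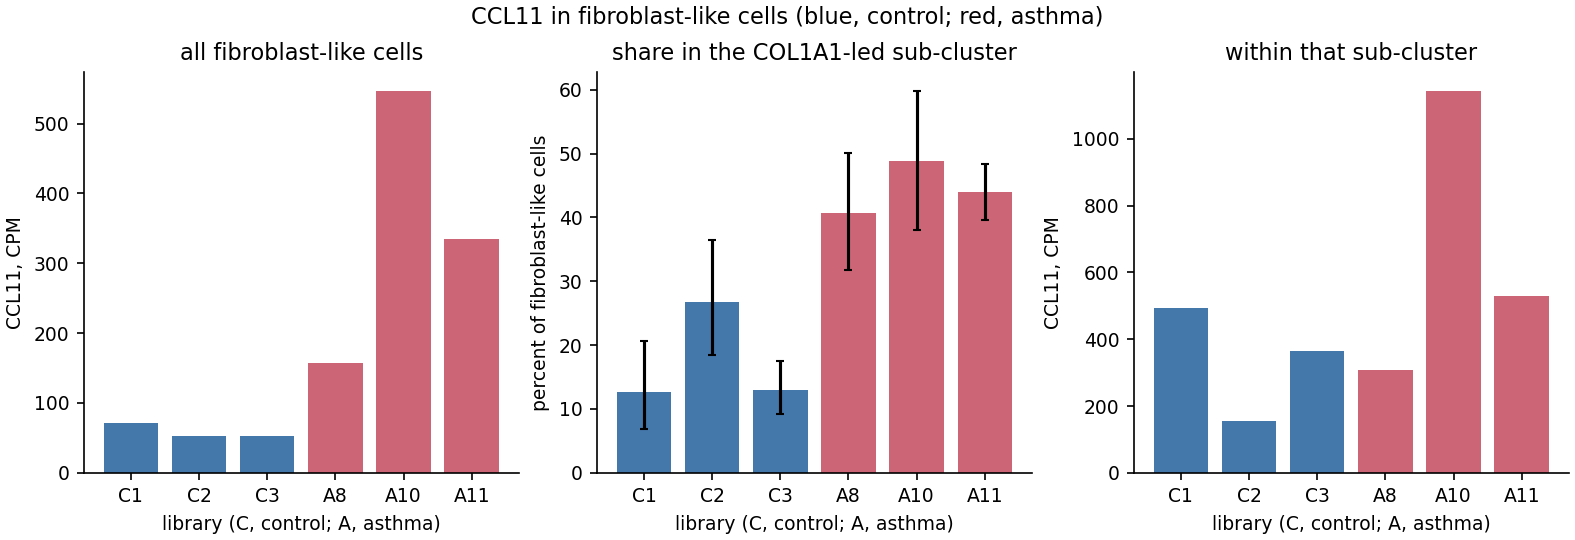
Bars give, for each library (C1, C2 and C3, control; A8, A10 and A11, asthma), the CCL11 level in CPM in all fibroblast-like cells (left), the percent of fibroblast-like cells in the COL1A1-led sub-cluster with exact 95% intervals (middle), and the CCL11 level in CPM within it (right). The asthma bars stand above all control bars in the left and middle plots and overlap them in the right plot.

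CCL24, or eotaxin-2, had 429 of its 441 UMIs in macrophage-like cells, which numbered 3743 and stood at 6.19 CPM. The 62 plasmacytoid dendritic-like cells had 6 UMIs in 6 cells, a higher level of 12.8 CPM, and 4.84% of them had a UMI after thinning against 1.354% of macrophage-like cells. Alveolar macrophage-like cells held 306 UMIs at 6.87 CPM. T and NK-like cells had 0 UMIs in 10128 cells at a median depth of 3657 UMIs, against 18220 in macrophage-like cells. That count allows up to 0.0296% of cells with a UMI and does not limit the share that express the gene. CCL24 and CCL18 were found in the same cells in part, since 110 of the 112 alveolar macrophage-like cells with a CCL24 UMI also had CCL18, which 96.1% of all alveolar macrophage-like cells had. The gene was high in 1 library of each group. Alveolar macrophage-like cells stood at 1.70, 0.169 and 28.6 CPM in the controls and at 0.952, 0.549 and 31.9 CPM in asthma. Whole libraries held 0.84, 1.79 and 6.01 CPM in the controls and 0.331, 0.464 and 7.01 CPM in asthma. In control replicate 2 a single cell had 38 of the 44 UMIs.

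For CCL24 the edgeR log2 fold change was -0.26 with a standard error of 1.21 and an adjusted p of 0.952, and it turned positive without control replicate 3 (0.77), asthma replicate 8 (0.27) or asthma replicate 10 (0.23). The spread between monkeys within a group was thus larger than the difference between groups.

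CCL26, or eotaxin-3, is known in human airways as a product of epithelial cells exposed to IL-13. Its 295 UMIs came from 42 cells. Club-like cells, which secrete SCGB1A1, held 197 of them in 5 of their 116 cells, and a single cell of control replicate 1 had 117. VWF-bearing endothelial-like cells held most of the rest, with 74 UMIs in 18 of 1048 endothelial-like cells, 66 of them in asthma replicate 8.

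By library the kept cells had 120, 0 and 11 UMIs of CCL26 in the controls and 156, 5 and 3 in asthma. The count of 0 in control replicate 2 allows a level of up to 0.122 CPM. High and low libraries occurred in both groups, and 97.5% of the UMIs of control replicate 1 came from the single cell. By edgeR the log2 fold change was 0.23 with a standard error of 1.73 and an adjusted p of 0.972. It ranged from -3.39 without asthma replicate 8 to 3.02 without control replicate 1.

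CCR3, the eotaxin receptor, is known above all from eosinophils, basophils and mast cells. Of its 69 UMIs, 61 lay in 60 T and NK-like cells. T and NK-like cells given no subtype, many of them with CD3 genes and granzymes, held 31 of these at 1.46 CPM, and NK-like cells held 23 at 2.36 CPM. The 1155 CD4 T-like cells had 0 UMIs, which allows up to 0.26% of cells with a UMI. The 109 mast-like cells also had 0 UMIs, which allows up to 2.75% of cells with a UMI. With about 1 UMI to a positive cell, neither count limits the share of cells that express the receptor. After thinning 0.335% of T and NK-like cells and 0.0% of macrophage-like cells had a UMI. In the libraries CCR3 had 0, 25 and 14 UMIs in the controls and 15, 7 and 8 in asthma. Control replicate 1 had 0 UMIs with 1875 T and NK-like cells, an upper limit of 0.0869 CPM for the library. In the edgeR fit the log2 fold change was -0.67 with a standard error of 1.09 and an adjusted p of 0.837, and it was 0.40 without control replicate 2.

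No cluster was named eosinophil-like. Of the 12 genes on a list of eosinophil and basophil genes, which includes CCR3, 8 had a row, and SIGLEC8, PRG2, RNASE2 and IL3RA had none under these symbols. The granule genes PRG3 and EPX had 7 and 15 UMIs and the receptor IL5RA had 17 UMIs over all kept cells. The most abundant gene of the list was CLC, with 1409 UMIs, of which 52.6% lay in epithelial-like cells. By library CLC stood at 0.0, 5.61 and 8.12 CPM in the controls and at 30.7, 0.0 and 4.77 CPM in asthma. None of the 8 genes was at 0 throughout. Of the 4 that could be tested in whole libraries 2 were higher and 2 lower, and 0 were called by edgeR, with 1 at an unadjusted p under 0.05, against 12.9% of all genes. That gene was HDC, the histamine-making enzyme, of whose UMIs 93.6% lay in mast-like cells, and mast-like cells numbered 2, 8 and 8 in the controls and 65, 22 and 4 in asthma. The mast-like class included a sub-cluster of 19 cells led by CLC, with FCER1A and MS4A2 but not CPA3 or KIT among its leading genes, which made up 6 of the 8 cells of control replicate 3 and 2 of the 4 of asthma replicate 11.

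CCL18, the most abundant member, was carried by alveolar macrophage-like cells, which held 120714 of its 141680 UMIs, or 85.2%, at 2710 CPM. Interstitial macrophage-like cells stood at 920 CPM. After thinning, 83.2% of alveolar and 37.7% of interstitial macrophage-like cells had a UMI. In T and NK-like cells, which should lack it, the thinned share was 3.104% at 15.2 CPM, with median depths of 3657 UMIs there and 24190 in alveolar macrophage-like cells. In the classes other than macrophage-like cells the thinned share ran from 0.992% in dendritic-like to 7.35% in epithelial-like cells, and where those UMIs came from was not tested. A set of 78 cells in the epithelial-like class, given no subtype, stood at 1175 CPM. Beside SCGB3A2 and SFTPC, the mesothelial genes ITLN1 and MSLN were among its leading genes, and the macrophage genes APOE, C1QA, C1QB, C1QC, MRC1 and MCEMP1 set it apart within the class, so its CCL18 level is not given as that of epithelial cells.

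Whole libraries held CCL18 at 1244, 260 and 430.5 CPM in the controls and at 1843, 545 and 288 CPM in asthma. Each group had 1 library far above the others. Within alveolar macrophage-like cells the levels were 2670, 677 and 2003 CPM in the controls and 5016, 2369 and 1740 CPM in asthma, and the groups overlapped. In macrophage-like cells edgeR gave a log2 fold change of 0.42 with a standard error of 0.62 and an adjusted p of 0.943, which was -0.59 without asthma replicate 8. Of the 6 alveolar macrophage-like sub-clusters, 4 came largely from a single monkey (99.3%, 98.65%, 95.9% and 76.5% of their cells), so for these a value of the sub-cluster cannot be told apart from that of the library, while the other two drew 51.1% and 30.2% of their cells from the leading library. CCL18 in T and NK-like cells stood at 27.8, 6.22 and 6.10 CPM in the controls and 30.3, 10.46 and 8.92 CPM in asthma.

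Over all classes, the edgeR test covered 16 pairs of a member and a class in 9 classes, of which 0 were called (2.75% of genes were called in endothelial-like cells, 0.015% in B-like cells and 0.0% in the other classes with a pair) and 3 had an unadjusted p under 0.05 (CCL11 in fibroblast-like, CCL22 in dendritic-like and CCL17 in macrophage-like cells, where 8.32%, 7.66% and 5.46% of all genes did). All 3 were higher in asthma. DESeq2 called 1 of the 16, CCL11 in fibroblast-like cells, where it called 0.717% of genes, and gave no adjusted p for CCR3 in T and NK-like cells. With no filter on low counts edgeR called 7 pairs. Beside CCL11 in fibroblast-like and CCL22 in dendritic-like cells, these were CCL17 in dendritic-like, fibroblast-like and monocyte-like cells, CCL22 in B-like cells and CCL18 in mesothelial-like cells, the last lower in asthma, and the groups overlapped for each of these 5. Those fits called 0.736% of genes in B-like, 1.41% in dendritic-like, 1.65% in fibroblast-like, 1.25% in mesothelial-like and 0.351% in monocyte-like cells. The shares of macrophage-like, fibroblast-like, epithelial-like and T and NK-like cells had adjusted exact permutation p of 0.9, 0.9, 0.5 and 0.5. With 3 against 3 the smallest p of this test is 0.1, so no share could pass. Macrophage-like cells made up 14.98% ± 7.71 of control and 15.1% ± 4.89 of asthma cells (SD, n = 3 each).

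The genes whose levels ran most like those of each member were found over 76 sums of a class in a library, as Pearson correlations of log2(CPM + 10), which share libraries and are descriptions only. CCL18 ran with the alveolar macrophage genes FABP4, MCEMP1 and PPARG (r from 0.89 to 0.90). CCL17 ran with MS4A4A (0.85), CD1E (0.82) and SIGLEC1 (0.81), and CCL22 with CD33 (0.87), CD1E (0.87) and KHDC1L (0.85), so CD1E was shared by the pair. CCL11 ran with VEGFD (0.97), SCN7A (0.95) and LRRTM4 (0.94). CCR4 ran with CGA (0.89), UNC45B (0.88) and ICOS (0.85), and CCR3 with TMEM244 (0.79), BCL11B (0.72) and THEMIS (0.69). The likeness was lowest for CCL24, led by CELA2A (0.71), and for CCL26, led by ATP6V1B1 (0.60).

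Other parts of the same signalling route were read from fixed lists. Of 12 further ligands of these receptors, scavenging receptors and the peptidase DPP4, 10 had a row (CCL3 and CCL15 had none under these symbols) and 7 could be tested in whole libraries. Of these 5 were higher and 2 lower in asthma and 0 were called by edgeR, with a median log2 fold change of 0.55 against -0.02 over all genes and 2 at an unadjusted p under 0.05, against 12.9% of all genes. Those were the scavenging receptor ACKR1, mainly of endothelial-like cells (log2 fold change 2.30 with a standard error of 0.65, edgeR adjusted p of 0.25), and DPP4 (0.83 with a standard error of 0.25, edgeR adjusted p of 0.271). Endothelial-like cells, which held 72.0% of ACKR1 UMIs, numbered 44, 30 and 97 in the controls and 267, 252 and 358 in asthma, and their part in the whole-library value was not tested. CCL5, which T and NK-like cells carried, was the most abundant at between 469.5 and 1106 CPM. None of the 10 was at 0.

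Of 19 genes of type 2 cytokines, their receptors and the STAT6 route, 17 had a row (IL2RG and CRLF2 had none) and 13 could be tested in whole libraries. Of these 5 were higher and 8 lower in asthma and 0 were called by edgeR, with a median log2 fold change of -0.10 against -0.02 over all genes and 2 at an unadjusted p under 0.05, a share near the 12.9% of all genes. Those were IL13RA1, a chain of the IL-13 receptor (0.47 with a standard error of 0.19, edgeR adjusted p of 0.371), and GATA3, the T helper 2 transcription factor (-0.58 with a standard error of 0.14, edgeR adjusted p of 0.213). The cytokines were scarce, with 107 UMIs of IL4, 86 of IL13 and 52 of IL5, and IL9 was at 0. JAK1 was the most abundant, and it was the only gene of the 3 lists that was called in any class, higher in asthma in endothelial-like cells with a log2 fold change of 1.08 and a standard error of 0.18 and an edgeR adjusted p of 0.032, beside the 2.75% of genes called in that class. The make-up of the endothelial-like class differed between libraries. A sub-cluster of 297 cells led by FCN3, RAMP3 and EPAS1 took 9.09%, 0.0% and 3.09% of the class in the controls. In asthma it took 30.7%, 30.2% and 36.9%. One of 136 cells led by ACE had no control cell. One of 106 cells with IGFBP3 and EDN1 took 13.6%, 6.67% and 69.1% in the controls and 6.7%, 3.2% and 1.4% in asthma. Other sub-clusters were also found in both groups. One of 149 cells, also led by ACE, took 15.9%, 40.0% and 4.12% against 21.0%, 21.8% and 4.19%. One of 140 cells with VWF and CPE took 47.7%, 46.7% and 11.3% against 13.1%, 10.7% and 8.94%. Their part in the JAK1 difference was not tested.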

How the data were processed

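The authors aligned 3′ single-cell libraries (10x Genomics, V3 chemistry) to the macFas6 build with Cell Ranger and deposited raw UMI counts, with no normalization. Its version is 2.1.1 in the submitters' processing notes, and the file headers and methods name other versions. A barcode was kept if it had over 500 and under 5000 genes, no fewer than 500 UMIs, and no more than 25% of them in the 37 mitochondrial rows. Cells were clustered without the members (scanpy 1.11.5, 2000 variable genes, 10 components, 20 neighbours, leidenalg 0.10.2 at resolution 0.8, and at 0.4 for sub-clusters) and named from fixed marker lists, with naming thresholds set after the clusters were seen. A total of 97 cells in sub-clusters with mixed markers were left out of the classes. Scrublet's own threshold marked 10 cells (0.041%), which has not worked, so doublets were kept, and 793 cells with the highest scores were left out as an alternative.

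UMIs were summed per library, and per library and class with at least 10 cells, and tested with edgeR 4.0.16 (TMM, filterByExpr, quasi-likelihood, Benjamini-Hochberg over all genes tested, call at adjusted p under 0.05 and log2 fold change over 0.25), with DESeq2 1.42.0 as an alternative. Standard errors are the log2 fold change over the square root of the F statistic. The code was tested on simulated data. Shares of classes were compared by two-sided exact permutation tests. Intervals and limits at a count of 0 cover counting error only. The genes described are the members and 3 gene lists, plus for each member the 3 genes most like it in level. The members and lists were chosen with earlier results of these data known.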

Additional observations from a re-analysis of the deposited data

How the results depend on the processing

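Over 17 fold changes of members, 193 of 230 alternative values kept direction and side of the threshold, 28 reversed and 9 passed the threshold where the reported value did not; the cause was not tested. The number of members called in whole libraries was 2 with DESeq2 (of the 5 to which it gave an adjusted p) in place of 0 of 8, and 0 under all other alternatives. Within classes it was 1 with DESeq2, 1 with the highest doublet scores left out, 7 without a filter on low counts (CCL17 in dendritic-like, fibroblast-like and monocyte-like, CCL22 in dendritic-like and B-like, CCL11 in fibroblast-like and CCL18 in mesothelial-like cells) and between 0 and 1 when a library was left out (CCL22 in dendritic-like cells without control replicate 1, CCL11 in fibroblast-like cells without asthma replicate 8). With subtypes in place of classes, an alternative chosen after seeing the data, it was 0. The share of all genes called in those subtype fits is not given, so that count is a description only.

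With at least 200 genes and no maximum, the log2 fold change was -0.10 for CCR4 and 0.02 for CCL24 in whole libraries, and 0.22 for CCL24 in macrophage-like cells. Over every deposited barcode it was -0.07 for CCR4 and 0.05 for CCL24. With at most 10% mitochondrial UMIs it was -1.15 for CCL26 in whole libraries and -0.27 for CCL22 in macrophage-like cells. Leaving out a library gave from -0.12 to 0.27 for CCR4, -2.90 to 0.77 for CCL24, -3.39 to 3.02 for CCL26, -1.28 to 0.40 for CCR3 and -0.77 to 1.26 for CCL18 in whole libraries. It gave from -0.20 to 1.14 for CCL22, -3.59 to 1.47 for CCL24 and -0.59 to 0.81 for CCL18 in macrophage-like cells, and -0.76 to 0.73 for CCR3 in T and NK-like cells. The difference in share, asthma minus control, ran from -1.78 to 3.63 percentage points for fibroblast-like cells (negative without asthma replicate 11) and from -2.44 to 4.56 for macrophage-like cells (negative without control replicate 2, control replicate 3 or asthma replicate 10). All mean levels by class moved by less than 1 SD, a limit that leaving out 1 of 6 libraries could not pass. Leaving out a library gave from 10.4 to 22.0 CPM for CCL26 in epithelial-like cells, against 18.3 CPM with all libraries. For CCL24 in macrophage-like cells the range was 6.06 to 11.4 CPM, against 9.66 CPM. No paired analysis was possible because the groups share no replicate number. CCR4 and CCR3 had under 100 UMIs each, and how large a difference would have to be to pass at this depth was not tested.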
